A study of Mus musculus with 4 samples.

Results

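The genes described here are 37 enzymes and regulators of cholesterol and fatty acid synthesis, taken as a list of gene symbols, of 11270 genes tested on the arrays. All probe sets annotated to these symbols were read, 85 in number, of which 70 passed a filter on dim signal (a mean log2 value over the 4 arrays of at least 5.42). They covered 36 of the 37 genes. For Acat2, a cytosolic thiolase that feeds the mevalonate pathway, no named probe set was used. Each gene is given by its tested probe set with the highest mean. The mevalonate and sterol arm held 19 genes (18 measured), the fatty acid arm 14, and the regulators of the sterol response were 4.

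The cells came from tail epidermis of CD-1 mice that carried a tamoxifen-inducible Cre recombinase, driven by the keratin 14 promoter in K14CREER/RosaYFP mice and by the involucrin promoter in InvCREER/RosaYFP mice. All mice carried the RosaYFP reporter and all received tamoxifen intraperitoneally, 1 ug in K14CREER and 10 ug in InvCREER, so the effects of the dose and of the Cre line cannot be told apart, and no group went without tamoxifen. Living YFP-positive basal cells of the interfollicular epidermis were sorted by high alpha6 integrin and lack of CD34, 3.5 days after induction by the sample titles and 4 days by the protocol. Each line had 2 arrays, and nothing in the labels states that these are separate mice; p-values therefore reflect only how far these samples spread, possibly for technical reasons. The age of the mice is not given in the sources used here.

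Acetyl-CoA is the common carbon source of the pathways measured here. In the mevalonate and sterol arm it is built into isoprene units, joined to squalene, closed to lanosterol and trimmed to cholesterol; in the fatty acid arm it is carboxylated, extended to palmitate, and then elongated, desaturated and esterified. Many genes of both arms are targets of the sterol regulatory element binding proteins (SREBPs), which are held in the endoplasmic reticulum by INSIG proteins when sterols are plentiful. In epidermis, cholesterol and long fatty acids go into the barrier lipids made by differentiating keratinocytes, and sebaceous glands make large amounts of fatty acid for sebum.

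The arrays correlated with each other at 0.928 to 0.969 over tested probe sets. InvCREER 1 stood apart on sex-linked genes, with Xist at 12.56 against 5.44 to 8.26 on the other arrays and the Y-linked Uty at 4.70 against 7.19 to 7.85, and it had the highest 3' to 5' log2 signal ratio of Actb (1.24, against 0.68 to 0.94) and of Gapdh (0.74, against 0.05 to 0.33). The 8 basal marker genes averaged 12.46 to 12.51 on the K14CREER arrays and 11.59 to 11.69 on the InvCREER arrays, so markers of the labelled cell type were high on every array. The 8 spinous markers averaged 9.96 to 10.07 on the K14CREER arrays and 11.65 to 11.81 on the InvCREER arrays. In these bulk samples, fewer cells of a type and less RNA per cell cannot be told apart.

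Genes of cholesterol synthesis had higher means in InvCREER than in K14CREER along the measured pathway, from the HMG-CoA synthase to the last reductase. All 18 measured genes of the mevalonate and sterol arm had a higher mean in InvCREER, where 48.2% of all genes did. Both InvCREER arrays lay above both K14CREER arrays for 17 of the 18, against 21.3% of all genes, and the mean was at least 2-fold higher for 15 of the 18, against 3.71%. The median log2 difference of the arm was 1.43 (range 0.43 to 1.97), beside -0.01 over all genes. By limma's moderated test with Benjamini-Hochberg adjustment over all 22519 tested probe sets, which called 0.959% of them, only Pmvk and Tm7sf2 passed an adjusted p under 0.05, 2 of 18 where 0.958% of all genes were called higher. None was called lower, as were 0.373% of all genes. The count rested on the arrays kept: with K14CREER 1 left out limma called 0 of the 18 (0.479% of all genes), with K14CREER 2 left out 5 (0.825%), with InvCREER 1 left out 2 (2.97%) and with InvCREER 2 left out 11 (4.66%). At an unadjusted p under 0.05 limma gave 15 of the 18 higher, where it gave 7.58% of all genes higher and 8.54% lower.

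Pmvk encodes phosphomevalonate kinase, which adds the second phosphate to mevalonate. It read 7.90 and 7.92 on K14CREER arrays 1 and 2 and 9.37 and 9.30 on InvCREER arrays 1 and 2. The lines were far apart and the arrays of a line nearly equal, and the difference was 1.43 (SE 0.20, limma adjusted p = 0.0422). Tm7sf2, a sterol C14 reductase that acts after lanosterol demethylation, read 6.92 and 6.92 in K14CREER and 8.36 and 8.39 in InvCREER, a rise of 1.46 (SE 0.22, limma adjusted p = 0.0463). These calls depend on the arrays kept: Pmvk lost its call without K14CREER 1 (adjusted p = 0.144), without K14CREER 2 (0.119) and without InvCREER 1 (0.0517). Tm7sf2 lost its call without K14CREER 1 (0.158) and without K14CREER 2 (0.132). With all probe sets kept, the adjusted p of Pmvk was 0.0512 and that of Tm7sf2 0.0598, and without the variance trend these were 0.0562 and 0.0534, all by limma.

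The other 5 measured genes of the mevalonate steps lead from the making of HMG-CoA to farnesyl diphosphate. Mvd, the decarboxylase that yields isopentenyl diphosphate, read 6.27 and 7.38 in K14CREER and 9.32 and 8.27 in InvCREER (difference 1.97, SE 0.48, limma adjusted p = 0.129). By the probe sets shown, Mvd had the largest difference of the arm, and its arrays of a line lay over 1 log2 unit apart in both lines. Idi1, the isomerase that makes dimethylallyl diphosphate, read 9.74 and 10.84 in K14CREER and 12.45 and 11.71 in InvCREER (difference 1.79, SE 0.39, limma adjusted p = 0.104). A further tested probe set of Idi1 differed by 2.20 (SE 0.42), more than Mvd. Fdps, which joins isoprene units to farnesyl diphosphate, read 8.65 and 9.73 in K14CREER and 10.51 and 10.81 in InvCREER (difference 1.48, SE 0.36, limma adjusted p = 0.126). For Idi1 and Fdps the lines did not overlap, and K14CREER 1 was the lowest array. Mvk, mevalonate kinase, differed by 1.09 (SE 0.28). Hmgcs1, the HMG-CoA synthase at the entry, differed by 0.44 (SE 0.15), with 12.34 and 12.48 in K14CREER and 13.04 and 12.64 in InvCREER.

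In the sterol steps, K14CREER 1 was again the lowest array for nearly every gene. Sqle, squalene epoxidase, read 8.14 and 9.76 in K14CREER and 10.75 and 10.62 in InvCREER (difference 1.74, SE 0.49, limma adjusted p = 0.175). The InvCREER arrays were 0.13 apart and the K14CREER arrays 1.62 apart, and without K14CREER 1 the difference was 0.93. Lss, which closes squalene epoxide to lanosterol, read 8.06 and 8.48 in K14CREER and 10.28 and 9.31 in InvCREER (difference 1.52, SE 0.36, limma adjusted p = 0.119), with no overlap. Cyp51, the lanosterol demethylase, read 7.70 and 8.67 in K14CREER and 9.85 and 9.50 in InvCREER (difference 1.49, SE 0.35, limma adjusted p = 0.119). Msmo1, the C4 methyl oxidase, read 8.90 and 10.02 in K14CREER and 11.45 and 10.98 in InvCREER (difference 1.76, SE 0.38, limma adjusted p = 0.0983). Neither gene overlapped between the lines.

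Nsdhl and Hsd17b7, which complete the removal of the C4 methyl groups, differed by 1.33 (SE 0.23, limma adjusted p = 0.0617) and 1.43 (SE 0.37, limma adjusted p = 0.147). Fdft1, squalene synthase, read 9.36 and 10.93 in K14CREER and 11.57 and 11.16 in InvCREER (difference 1.22, SE 0.48), and its difference was 0.43 without K14CREER 1. Stard4, a cytosolic sterol carrier, read 6.18 and 7.72 in K14CREER and 7.95 and 8.18 in InvCREER (difference 1.11, SE 0.49), with 0.34 left without K14CREER 1. Dhcr7, the last reductase of the pathway, differed by 1.12 (SE 0.29). Dhcr7 was the gene of the arm with the clearest opposite order in K14CREER, at 9.31 on array 1 and 8.60 on array 2. Sc5d, the C5 desaturase, was the only measured gene of the arm whose lines overlapped in the probe set shown. It read 7.54 and 8.88 in K14CREER and 8.76 and 9.60 in InvCREER (difference 0.97, SE 0.49, and 0.30 without K14CREER 1). The lines also overlapped in a further tested probe set of Mvk, with 6.68 and 7.26 in K14CREER and 7.17 and 8.14 in InvCREER. They did so in 1 of Stard4, with 4.88 and 6.62 in K14CREER and 6.35 and 6.69 in InvCREER. Ebp, the sterol isomerase, had the smallest difference, 0.43 (SE 0.24).

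**Figure D1:**
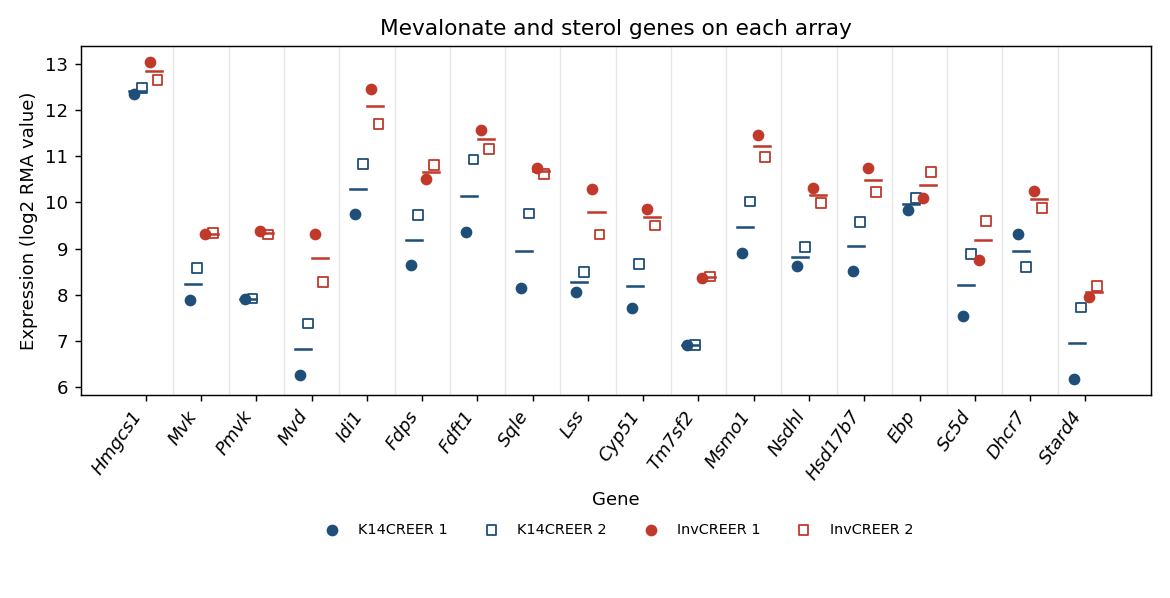
Log2 signal of the 18 measured genes of the mevalonate and sterol arm on each of the 4 arrays, in pathway order, with bars at the mean of each line (n = 2). Pmvk and Tm7sf2 have almost equal arrays within a line, while Sqle and Fdft1 have 1 low K14CREER array.

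The 4 regulators had a median difference of 0.40. Limma called none of them and gave 1, Insig1, an unadjusted p under 0.05, on the side where 7.58% of all genes had one. Only Insig2 had a lower mean in InvCREER. Insig1, which retains SREBPs and is itself induced by them, read 7.68 and 9.01 in K14CREER and 9.80 and 9.16 in InvCREER (difference 1.13, SE 0.46, limma adjusted p = 0.347). Insig2, its relative, read 8.90 and 9.12 in K14CREER and 8.58 and 8.93 in InvCREER (difference -0.25, SE 0.23, limma adjusted p = 0.757), and its lines overlapped. Srebf2, whose protein mainly drives sterol genes, read 8.84 and 9.08 in K14CREER and 9.81 and 9.22 in InvCREER (difference 0.55, SE 0.26, limma adjusted p = 0.432). Srebf1, whose protein mainly drives fatty acid genes, read 11.23 and 11.85 in K14CREER and 11.96 and 11.62 in InvCREER (difference 0.25, SE 0.23, limma adjusted p = 0.762). Insig1 and the Srebf2 probe set shown did not overlap between the lines, Srebf1 did. Both InvCREER arrays lay above both K14CREER arrays for 21.3% of all genes. The lines overlapped in a further tested probe set of Srebf2, with 8.28 and 8.19 in K14CREER and 8.84 and 8.22 in InvCREER (difference 0.29). Without K14CREER 1 the difference of Insig1 was 0.47 and that of Srebf1 -0.062.

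Promoter sequence was looked at because the sterol genes lay higher together. The RefSeq promoter table (GRCm38.p6, 250 bases before to 50 after each start site, 32851 promoters of 27025 genes) held promoters of 31 of the 37 genes, 15 of the mevalonate and sterol arm, 12 of the fatty acid arm and the 4 regulators. Printed are the 200 bases before the start site, 5′ to 3′ on the gene's strand, of Hmgcs1 as the holder of a sterol response element, of Pmvk and Tm7sf2 as the called genes, of Mvd and Idi1 as the largest differences of the arm, and of Elovl6 as the largest difference of the fatty acid arm. They lie at chr13:119690151-119690350 (plus strand), chr3:89454341-89454540 (plus strand, 1 of 2 start sites), chr19:6067851-6068050 (minus strand), chr8:122443423-122443622 (minus strand), chr13:8885406-8885605 (plus strand) and chr3:129532186-129532385 (plus strand). Capitals mark matches, on either strand, to the motifs searched: TCACNCCAC (sterol response element) and its looser form TCACNCNAC, which contains it, CACGTG (E-box), CCAAT (NF-Y box) and GGGCGG (GC box).
Hmgcs1: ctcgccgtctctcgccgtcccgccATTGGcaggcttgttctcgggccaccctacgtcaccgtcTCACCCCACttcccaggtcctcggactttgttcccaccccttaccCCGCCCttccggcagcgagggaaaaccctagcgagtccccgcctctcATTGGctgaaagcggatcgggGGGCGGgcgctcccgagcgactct
Pmvk: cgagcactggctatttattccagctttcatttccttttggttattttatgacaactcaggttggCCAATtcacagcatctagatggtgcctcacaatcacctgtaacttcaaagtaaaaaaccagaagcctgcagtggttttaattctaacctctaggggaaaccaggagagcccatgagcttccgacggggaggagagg
Tm7sf2: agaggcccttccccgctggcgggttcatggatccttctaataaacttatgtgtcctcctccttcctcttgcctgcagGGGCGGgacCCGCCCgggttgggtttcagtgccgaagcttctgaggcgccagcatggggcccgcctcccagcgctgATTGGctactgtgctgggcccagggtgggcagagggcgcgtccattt
Mvd: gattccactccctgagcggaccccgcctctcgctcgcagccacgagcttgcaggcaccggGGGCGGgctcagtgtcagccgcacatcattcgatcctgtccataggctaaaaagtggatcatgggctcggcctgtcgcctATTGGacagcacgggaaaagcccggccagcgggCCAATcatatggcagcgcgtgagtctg
Idi1: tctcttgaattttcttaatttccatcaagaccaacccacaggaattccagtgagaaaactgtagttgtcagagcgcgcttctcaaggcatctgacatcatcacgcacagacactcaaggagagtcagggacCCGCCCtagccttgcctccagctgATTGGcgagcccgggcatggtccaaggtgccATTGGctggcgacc
Elovl6: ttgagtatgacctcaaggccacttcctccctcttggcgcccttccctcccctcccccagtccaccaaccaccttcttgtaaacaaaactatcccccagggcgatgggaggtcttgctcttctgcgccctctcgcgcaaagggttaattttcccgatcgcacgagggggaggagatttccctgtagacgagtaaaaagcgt

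In Hmgcs1 the sterol response element began 137 bases before the start site and lay between NF-Y boxes at 176 and 45 bases. It was the only promoter among the 31 genes with this motif (3.23%, beside 1.44% of all genes in the table), and the looser form added Nsdhl (6.45% beside 3.15%). The NF-Y box was in 14 of the 15 sterol-arm genes (93.3%) and 8 of the 12 fatty acid genes (66.7%), beside 41.1% of all genes. The GC box was in 14 of 15 (93.3%) and 6 of 12 (50%), beside 38.2% of all genes. The E-box was in 5 of the 31 genes (16.1%, beside 8.09%): Hsd17b7, Dhcr7, Sc5d, Elovl5 and Insig1. The member promoters were also richer in G and C, with a median of 61.3% beside 52.7% over the table. The part of base composition in these shares was not tested. Elovl6 had none of these motifs in its printed bases. A match describes letters in the window, not a bound site.

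The fatty acid arm was higher in InvCREER for most of its steps, but less evenly. Of its 14 genes, 12 had a higher mean and 2 a lower one. Both InvCREER arrays lay above both K14CREER arrays for 9 genes, where 21.3% of all genes lay above. They lay below for 2, Fads1 and Fads2, where 24.1% of all genes lay below. Fads2 passed the filter only through the K14CREER arrays, where it was higher. The mean was at least 2-fold higher for 8 of the 14, against 3.71% of all genes. The median difference was 1.15 (range -0.997 to 2.34). Limma called none at an adjusted p under 0.05, and at an unadjusted p under 0.05 it gave 7 higher and 1 lower (7.58% and 8.54% of all genes). Without InvCREER 1 it called 2 of the 14, Elovl5 and Elovl6, where it called 2.97% of all genes, and the median difference was 0.58. Without InvCREER 2 it called 7 (4.66% of all genes), and with either K14CREER array left out 0.

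Among the genes that supply carbon and reducing power, Acly, which splits citrate to cytosolic acetyl-CoA, read 10.02 and 9.83 in K14CREER and 11.47 and 10.84 in InvCREER (difference 1.23, SE 0.24, limma adjusted p = 0.0800). Acss2, which makes acetyl-CoA from acetate, read 6.87 and 6.85 in K14CREER and 9.34 and 7.91 in InvCREER (difference 1.77, SE 0.45, limma adjusted p = 0.144). Me1, the malic enzyme that yields NADPH, read 7.72 and 7.88 in K14CREER and 10.19 and 9.20 in InvCREER (difference 1.90, SE 0.35, limma adjusted p = 0.0679). In all 3 the lines did not overlap and InvCREER 1 was the highest array, with K14CREER arrays less than 0.2 apart.

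InvCREER 1 was also the highest array for Fasn, Acacb, Acaca and Elovl6. Fasn, fatty acid synthase, read 9.34 and 9.03 in K14CREER and 11.21 and 9.46 in InvCREER (difference 1.15, SE 0.53, limma adjusted p = 0.414). InvCREER 2 lay only just above the K14CREER arrays, and without InvCREER 1 the difference was 0.28. Acacb, the mitochondria-linked acetyl-CoA carboxylase, read 5.95 and 5.08 in K14CREER and 8.26 and 6.40 in InvCREER (difference 1.81, SE 0.62, limma adjusted p = 0.258). Its relative Acaca, the cytosolic carboxylase, differed by 0.48 (SE 0.28), and its lines overlapped. Elovl6, which extends palmitate to stearate, read 9.37 and 8.75 in K14CREER and 12.36 and 10.43 in InvCREER (difference 2.34, SE 0.59, limma adjusted p = 0.137), the largest difference of the 36 genes and also the largest gap between the InvCREER arrays, 1.93.

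Elongation and desaturation of polyunsaturated chains did not go 1 way. Elovl5, an elongase of polyunsaturated chains, read 8.43 and 9.09 in K14CREER and 9.57 and 10.36 in InvCREER (difference 1.20, SE 0.34, limma adjusted p = 0.182), and unlike the genes above it was highest on InvCREER 2. Fads1, the delta-5 desaturase, was lower in InvCREER, with 6.86 and 6.66 in K14CREER and 5.76 and 5.76 in InvCREER (difference -0.997, SE 0.22, limma adjusted p = 0.108). The InvCREER arrays were equal to 2 decimals, with no overlap between the lines. Fads2, the delta-6 desaturase, read 5.79 and 5.53 in K14CREER and 5.35 and 5.46 in InvCREER, on either side of the filter value (difference -0.26, SE 0.22, limma adjusted p = 0.738). Further Fads2 probe sets that did not pass the filter differed by 0.16 and -0.04, and their lines overlapped. Fads3, a related desaturase outside the 37 genes, read 6.46 and 5.91 in K14CREER and 5.62 and 5.41 in InvCREER (difference -0.67, SE 0.27, limma adjusted p = 0.341). None of these genes passed the test, and Fads3 is shown because of its value.

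Of the remaining genes, Gpam, the acyltransferase that starts glycerolipid synthesis, read 10.08 and 9.92 in K14CREER and 11.63 and 10.66 in InvCREER (difference 1.15, SE 0.32, limma adjusted p = 0.168), with no overlap. Elovl1, an elongase of very long saturated chains, differed by 0.36 (SE 0.17). Scd2, a stearoyl-CoA desaturase, differed by 0.30 (SE 0.24), and Lpin1, a phosphatidate phosphatase, by 0.41 (SE 0.38); the lines overlapped in both. The Lpin1 difference was -0.12 without InvCREER 1, and that of Scd2 -0.074 without K14CREER 1. Among the 34 further tested probe sets of the members, 33 had the sign of the probe set shown, the exception being 1 of Scd2, and limma called none of the 34.

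**Figure D2:**
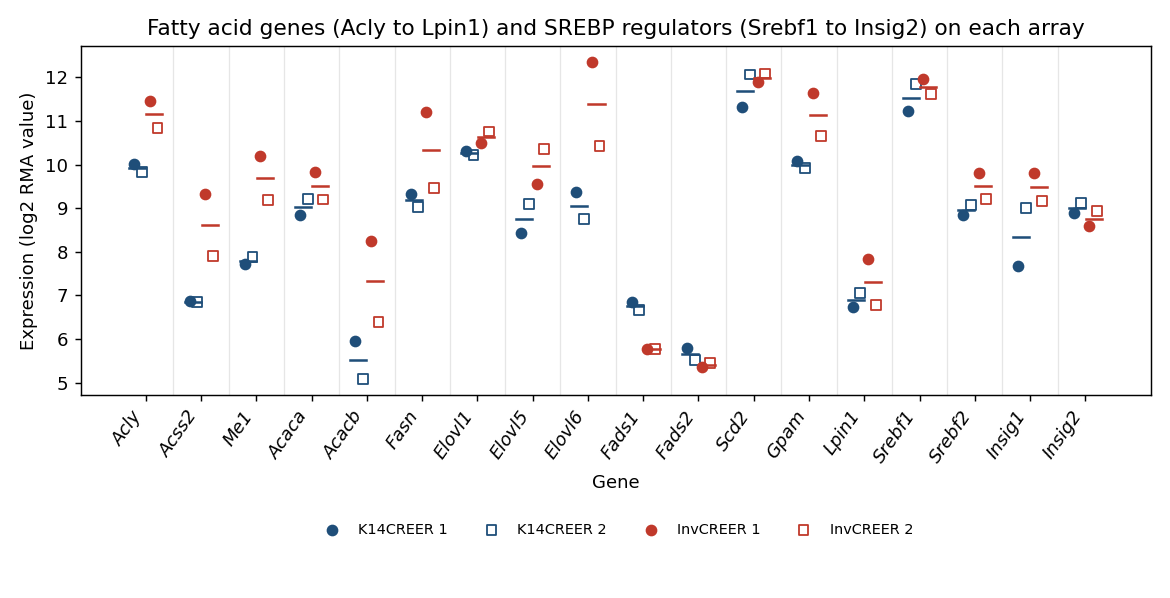
Log2 signal of the 14 fatty acid genes and the 4 regulators on each of the 4 arrays, with bars at the mean of each line (n = 2). InvCREER 1 is the high array for Elovl6, Fasn, Acacb and Acss2, and Fads1 is lower on both InvCREER arrays.

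**Figure D3:**
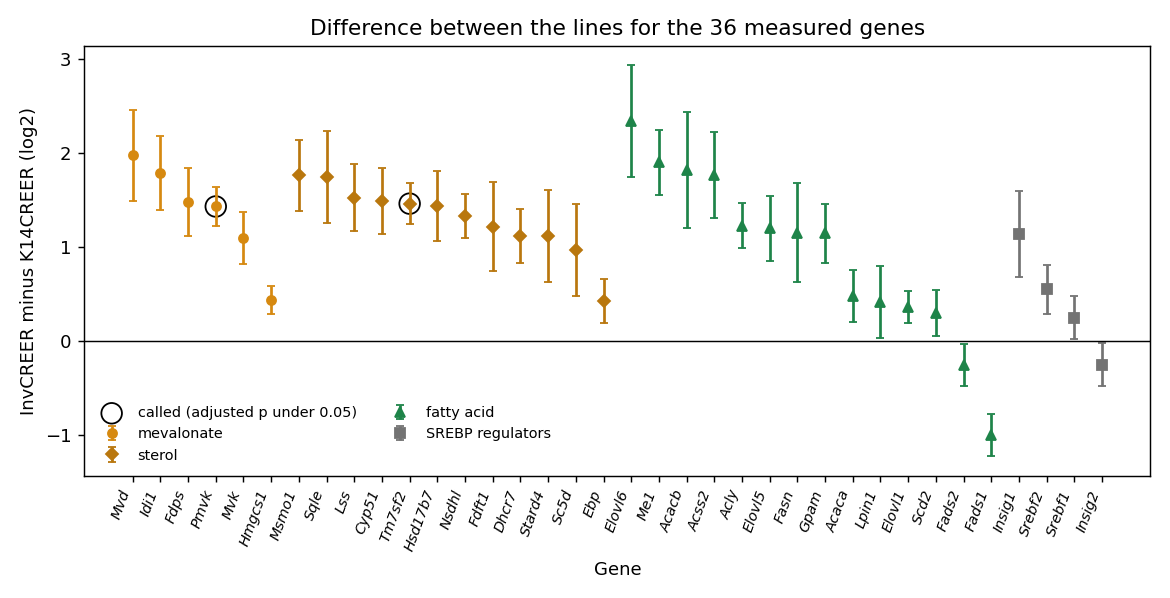
Log2 difference, InvCREER minus K14CREER, of the 36 measured genes with its moderated standard error, by arm; the 2 genes called by limma at an adjusted p under 0.05 are marked. All 18 genes of the mevalonate and sterol arm lie above 0, and Fads1, Fads2 and Insig2 lie below.

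The spread within a line lay in different arrays for the arms. In the mevalonate and sterol arm, K14CREER 2 was above K14CREER 1 for 16 of 18 genes, with a median of 1.01 (range -0.71 for Dhcr7 to 1.62 for Sqle), and by more than 0.5 for 11 of 18, where 10.9% of all genes were. In the fatty acid arm the median of the same contrast was -0.12, and 2 of 14 genes were above 0.5. In InvCREER it was the fatty acid arm that split: InvCREER 1 was above InvCREER 2 by more than 0.5 for 9 of 14 genes (median 0.81), against 4 of 18 sterol genes (median 0.34) and 7.37% of all genes. The medians over all genes were 0.04 and -0.05. These are differences between single arrays, with no test.

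**Figure D4:**
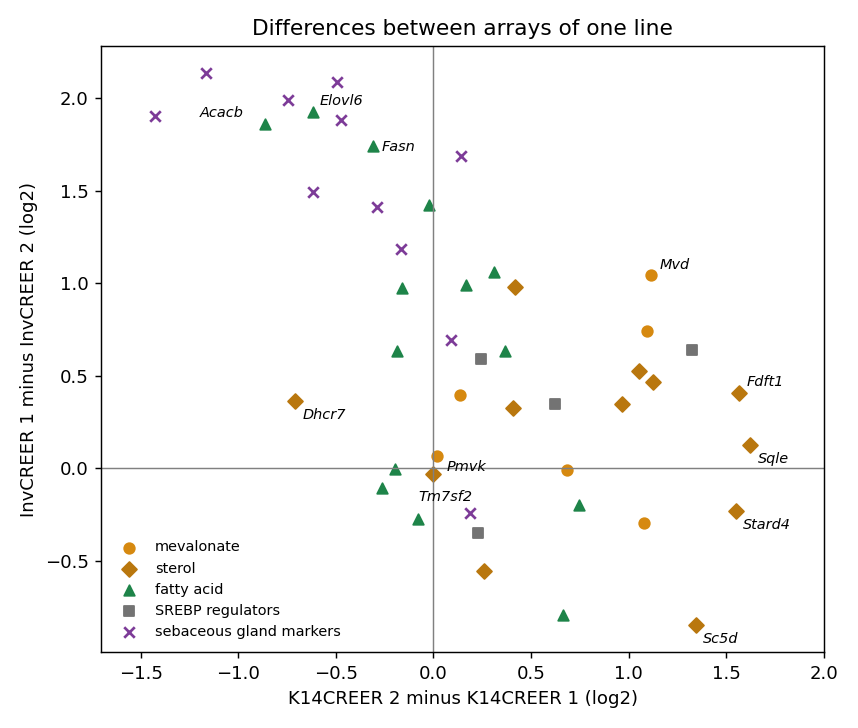
Each gene's difference between the K14CREER arrays (horizontal, log2) against its difference between the InvCREER arrays (vertical, log2); points are the 36 measured genes by role and 11 sebaceous gland markers. Sterol genes such as Sqle, Fdft1 and Stard4 lie to the right, and Elovl6, Acacb and Fasn lie at the top beside most sebaceous markers.

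Compared array by array, the sterol arm was higher in each pairing of an InvCREER with a K14CREER array. Its median difference was 1.82 for InvCREER 1 and 1.74 for InvCREER 2 against K14CREER 1, and 1.17 and 0.85 against K14CREER 2. For the fatty acid arm these were 1.29 and 0.52 against K14CREER 1, and 1.21 and 0.64 against K14CREER 2. Without InvCREER 1 the sterol median was 1.27, and without K14CREER 1 it was 0.97.

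Sebaceous gland markers, like most fatty acid genes, were highest on InvCREER 1. The 11 measured of the 14 listed, of which 4 (Scd1, Scd3, Elovl3 and Dgat2) are also in the list of other fatty acid genes, averaged 7.10 and 6.65 on the K14CREER arrays and 9.76 and 8.28 on the InvCREER arrays. All but Mogat1, which read 4.47 to 4.71 and was not tested, were higher on InvCREER 1 than on InvCREER 2 by more than 0.5, and the median over the 11 was 1.69. Mc5r, Pparg and Scd3 passed the filter only through the InvCREER arrays, so the 10 tested markers are in part chosen by where they were high. The fatty acid genes averaged 8.40 and 8.37, then 9.66 and 8.95, and the sterol genes 8.44 and 9.20, then 10.24 and 10.03. Limma called 1 of the 10 tested markers, Dgat2, higher, where it called 0.958% of all genes higher. Far2, a fatty acyl-CoA reductase of sebaceous cells, read 6.28 and 5.11 in K14CREER and 10.77 and 8.63 in InvCREER. Between the K14CREER arrays, the sebaceous median was -0.47 for array 2 minus array 1, where the sterol arm had 1.01.

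The 8 Langerhans and myeloid markers averaged 5.45 and 5.18 in K14CREER and 7.30 and 5.98 in InvCREER, all measured genes counted. Of these, 6 were tested, Cd207 and Ctss among them only through InvCREER, and none was called by limma. The spinous markers were about equally high on both InvCREER arrays. Limma called 6 of 8 higher, where it called 0.958% of all genes higher, and Tgm1, not called, was tested only through InvCREER. Of the basal markers, all 8 had a lower mean in InvCREER, with Krt15 called lower, where 0.373% of all genes were. Of 8 adipocyte markers, 6 were measured. Adipoq read 3.46 to 3.75, Lep 4.05 to 4.37, Fabp4 4.34 to 4.65 and Pck1 3.72 to 4.03, below the filter value, and Retn read 6.04 to 6.66, above it (difference -0.19). Lpl, which other cells also express, read 6.66 and 5.80 in K14CREER against 10.55 and 8.81 in InvCREER. The 7 fibroblast markers averaged 6.30 and 5.39 in K14CREER and 5.39 and 5.13 in InvCREER. All 7 had a lower mean in InvCREER, where 48.2% of all genes had a higher one. Both InvCREER arrays lay below both K14CREER arrays for only 3 of the 7. The 3 tested were Dcn (difference -1.87, SE 0.30, limma adjusted p = 0.0552), Col1a2 (-0.33) and Vim (-0.07). The lines overlapped in Col1a2 and Vim, and the 2 further tested probe sets of Vim had the opposite sign. Col1a1, Col3a1, Lum and Pdgfra did not pass the filter. The 7 upper follicle markers averaged 8.04 and 7.29 in K14CREER and 7.66 and 7.16 in InvCREER. Of the 5 tested, limma called Lgr6 lower (difference -1.79, adjusted p = 0.0292), Plet1 differed by -1.07 and Krt79, which is also in the sebaceous list, by 1.98. The part of sebaceous, myeloid, spinous, fibroblast and follicle cells, of the RNA ratios and of InvCREER 1 in the results above was not tested.

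**Figure D5:**
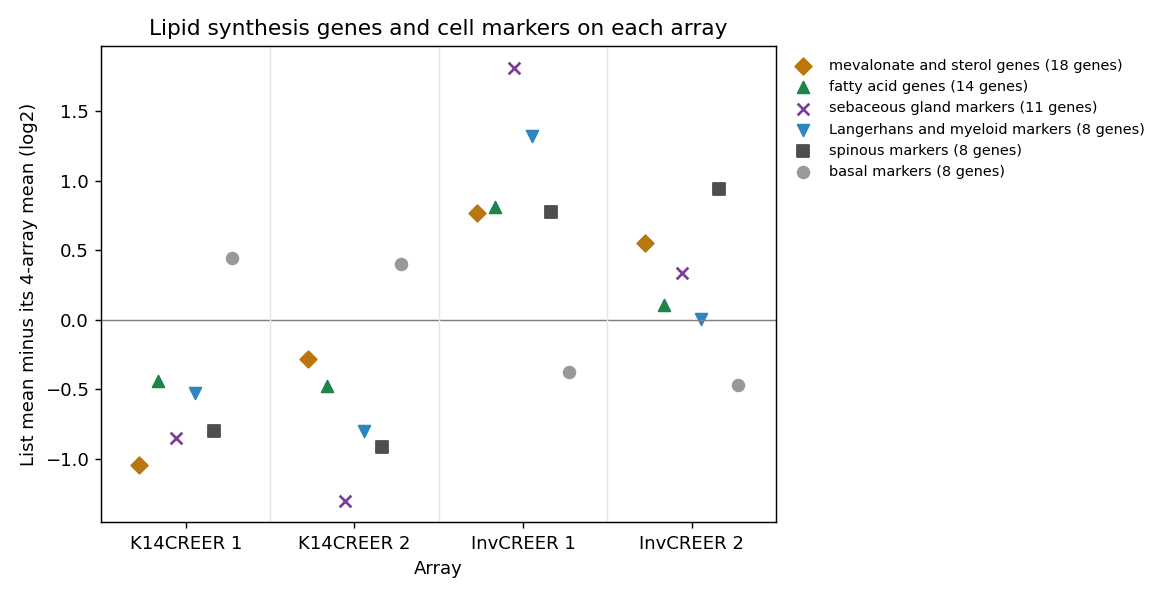
Mean log2 signal of each gene list on each array, minus the list's own mean over the 4 arrays; points are lists, with the number of measured genes in the legend. The sterol genes are similar on both InvCREER arrays and lowest on K14CREER 1, the fatty acid genes and sebaceous markers are highest on InvCREER 1, and the basal markers are lower on both InvCREER arrays.

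Other genes of sterol handling had no common direction. Of 29 listed, 18 were tested, 10 with a higher and 8 with a lower mean, with a median difference of 0.07. Limma called none, and at an unadjusted p under 0.05 it gave 3 of 18 higher and 1 lower, where 7.58% and 8.54% of all genes were. Npc1, which exports cholesterol from lysosomes, read 7.29 and 6.88 in K14CREER and 8.21 and 7.75 in InvCREER (difference 0.89, SE 0.28, limma adjusted p = 0.222). Erg28, a scaffold of the C4 demethylation complex, read 8.93 and 9.29 in K14CREER and 10.11 and 9.79 in InvCREER (difference 0.84, SE 0.22, limma adjusted p = 0.155), and neither gene overlapped between the lines. The sterol efflux pump Abca1 read 11.50 and 10.66 in K14CREER and 11.28 and 9.85 in InvCREER (difference -0.52, SE 0.49), with array 2 the lower in each line. The SREBP-cleaving protease Mbtps1 read 10.62 and 10.54 in K14CREER and 10.23 and 10.06 in InvCREER (difference -0.44, SE 0.16), and Scap, the SREBP escort protein, differed by 0.07.

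Of 40 other genes of fatty acid synthesis and use, 32 were tested, 24 with a higher and 8 with a lower mean, with a median difference of 0.63. Limma called 4 higher and none lower, where it called 0.958% of all genes higher and 0.373% lower. The mean was at least 2-fold higher for 12 of the 32, against 3.71% of all genes. Agpat3, an acyltransferase of phospholipid synthesis, rose by 2.29 (SE 0.24, limma adjusted p = 0.0164), with 7.28 and 7.53 in K14CREER and 9.52 and 9.88 in InvCREER and all 4 of its tested probe sets higher. Its InvCREER arrays lay close together, and InvCREER 2 was the higher. The other called genes were Elovl4, an elongase of very long chains in barrier lipids, with 7.15 and 7.11 on the K14CREER arrays and 11.02 and 11.06 on the InvCREER arrays, Olah, a thioesterase that releases medium chains, at 4.65 and 5.16 and then 9.46 and 8.78, tested only through its InvCREER level, and Dgat2, which makes triglyceride, at 8.72 and 8.80 and then 10.92 and 10.22. Elovl3, a sebaceous elongase, read 6.49 and 5.74 in K14CREER and 10.47 and 8.48 in InvCREER (difference 3.36, SE 0.64, limma adjusted p = 0.0750).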

How the data were processed

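RNA (100 ng total per array) was amplified with a 3' in vitro transcription kit and hybridised to Affymetrix mouse arrays, per the labels' protocols. The deposited log2 values were made by the authors with RMA (Expression Console 1.1 of Affymetrix, per the submitters' processing notes). RMA gives all arrays a common distribution, which hides any change in a cell's total RNA. High signals on arrays can also be compressed. Array medians were 5.41 to 5.44 and the highest value was 14.2. The number of arrays limits the precision.

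Of 45101 probe sets, 64 controls were set aside and 22519 with a mean at or above the median of the rest, 5.42, were tested with limma 3.58.1 in R 4.3.3 (lmFit, eBayes with a mean-variance trend, 2-sided, no block), InvCREER minus K14CREER. P-values were adjusted by Benjamini-Hochberg over all 22519 and called under 0.05. Genes were named from the platform annotation, never from a probe set with several symbols. Over the tested genes (11270), a gene was its probe set with the highest mean. With 2 arrays a line, no exact permutation p can be below 0.333, and none was computed. Array values are given for called members, the 8 largest differences of each arm, the regulators and members of opposite sign to their arm, and other pathway genes where called or among the 4 largest of their list. Dhcr7, Sc5d, Hmgcs1, Fdft1, Stard4, Fads3, Scap and the marker genes shown were added after their values were seen. Members and lists were chosen with earlier results of these data known.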

Additional observations from a re-analysis of the deposited data

How the results depend on the processing

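The directions given for the arms held under each alternative tried. The probe set counts below are out of 22519, except that the stricter filter tested fewer. The count with the mean of a gene's probe sets is out of 11270 genes. The count of called probe sets moved from 216 to 692 at an adjusted p under 0.10, 405 with a stricter filter, 122 without the variance trend, 1390 with the replicate number as a block and 450 genes with the mean of a gene's probe sets; leaving out 1 array gave 82 to 981. Under the same settings the called genes of the mevalonate and sterol arm went from 2 to 4, 4, 0, 8 and 5, with 0 when no filter was used and 0 to 11 with 1 array left out. Those of the fatty acid arm went from 0 to 2, 2, 0, 7 and 1, and 0 to 7 with 1 array left out. A line cut to 1 array was assumed to vary as the other line does. The median of the sterol arm ranged from 0.97 to 1.81 and that of the fatty acid arm from 0.58 to 1.24. Leaving out 1 array gave Lpin1 -0.12 (without InvCREER 1) to 0.94, Scd2 -0.074 (without K14CREER 1) to 0.67 and Srebf1 -0.062 (without K14CREER 1) to 0.56, so their sign turned; the cause of these changes was not tested. Arrays of the same number deviated together at r = 0.38, but with only 2 pairs the numbers were not taken to pair the samples. Centring the arrays and leaving out probe sets that can match several transcripts left 2 called members each.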
